A study of Homo sapiens with 6 samples.

Results

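The genes described here carry glucose into the cell, drive the glycolytic steps that follow, and turn the end product into lactate or hold it back from the mitochondrion. They are the glucose transporter SLC2A1 (GLUT1), HK2, PFKFB3, PFKFB4, ALDOA, ALDOC, PGK1, ENO2, LDHA and PDK1, 10 of the 20332 genes in the count table, chosen by symbol. They were chosen with their values in view, so the difference of each between RAC3 overexpression and the negative control is given as a description and carries no test. All 10 were well enough counted to enter the fit over 12941 genes, with a mean of 282 counts per library for ENO2 at the low end and 28961 for LDHA at the high end.

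Glycolysis splits glucose into pyruvate in the cytosol and yields ATP without oxygen. Liver cancer cells commonly express the transporter and enzyme forms of proliferating tissue, such as SLC2A1 and HK2, in place of hepatocyte forms such as the transporter SLC2A2. Most of these genes are textbook targets of the hypoxia-inducible factors, which bind short DNA stretches with the core ACGTG or GCGTG. Under this programme more glucose is taken up, lactate dehydrogenase A reduces pyruvate to lactate, and the kinase PDK1 switches off pyruvate dehydrogenase, the gate to the mitochondrion.

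RNA was sequenced from 3 samples of Huh-7, a human hepatocellular carcinoma cell line, with stable overexpression of the small GTPase RAC3, and from 3 negative control samples that the labels give as wild type. The sources describe the 3 RNA samples of a group as independent but do not say whether each came from its own culture or clone, so the spread below is that between these samples. Total counts per library lay between 13855762 and 18199888. RAC3 had 35.6, 31.4 and 32.8 CPM (counts per unit of sequencing depth, TMM-normalized) in the controls and 232.6, 239.6 and 225.4 CPM with overexpression, including the libraries RAC3 2 and RAC3 3, whose genotype labels name RAC4 and RAC5. All 10 hepatocyte markers examined passed the filter on low counts, with a summed level of 5618 to 5682 CPM in the controls and 5142 to 5664 CPM with RAC3, led by ALB and TF. Of the fibroblast markers 5 of 7 passed the filter, with summed levels of 233 to 249 CPM and 272 to 285 CPM (LUM and COL1A2 led, and THY1 was at 0 in all libraries). Of the leukocyte markers 2 of 7 passed, at 6.97 to 8.79 CPM and 9.29 to 12.3 CPM with CD163 and TYROBP at 0, and of the endothelial markers 1 of 6 passed, at 2.66 to 3.15 CPM and 2.84 to 3.76 CPM with TEK at 0. The fibroblast and leukocyte sums were thus higher in every RAC3 library than in every control, but the fibroblast markers did not move together. LUM and COL1A2 had log2 fold changes of 0.22 and 0.51, while COL1A1 (-0.22), PDGFRB (-0.71) and COL3A1 (-0.12) went the other way. CD68 (0.47) led the leukocyte sum. The part of these markers in the results below was not tested.

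The promoters of 4 of these genes are printed here because they span the range of the results: PFKFB4 and SLC2A1 differed most between the groups, and PGK1 and LDHA were among the genes that differed least. Each is RefSeq's sequence (GRCh38.p14) on the gene's own strand, from 250 bases before the transcription start through 30 bases from it on, and the capitals mark every ACGTG or GCGTG on either strand, which reads CACGT or CACGC where it lies on the opposite strand.
PFKFB4 (chr3:48556774-48557053, minus strand): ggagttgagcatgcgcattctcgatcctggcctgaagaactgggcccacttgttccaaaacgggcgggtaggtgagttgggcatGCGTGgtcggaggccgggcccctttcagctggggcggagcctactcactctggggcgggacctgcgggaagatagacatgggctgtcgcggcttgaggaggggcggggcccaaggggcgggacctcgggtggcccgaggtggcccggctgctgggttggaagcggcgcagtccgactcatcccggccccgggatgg
SLC2A1 (chr1:42958839-42959118, minus strand): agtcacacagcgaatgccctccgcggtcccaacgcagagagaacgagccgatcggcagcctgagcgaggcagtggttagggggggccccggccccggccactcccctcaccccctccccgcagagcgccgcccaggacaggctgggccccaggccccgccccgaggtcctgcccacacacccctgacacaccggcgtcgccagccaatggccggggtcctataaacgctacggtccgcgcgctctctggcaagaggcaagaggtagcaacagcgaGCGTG
PGK1 (chrX:78103998-78104277, plus strand): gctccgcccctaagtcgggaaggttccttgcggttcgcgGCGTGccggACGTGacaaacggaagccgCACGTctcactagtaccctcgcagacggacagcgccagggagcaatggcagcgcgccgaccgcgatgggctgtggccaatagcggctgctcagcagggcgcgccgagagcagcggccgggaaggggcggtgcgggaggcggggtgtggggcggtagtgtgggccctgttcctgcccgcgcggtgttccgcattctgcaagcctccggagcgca
LDHA (chr11:18394313-18394592, plus strand): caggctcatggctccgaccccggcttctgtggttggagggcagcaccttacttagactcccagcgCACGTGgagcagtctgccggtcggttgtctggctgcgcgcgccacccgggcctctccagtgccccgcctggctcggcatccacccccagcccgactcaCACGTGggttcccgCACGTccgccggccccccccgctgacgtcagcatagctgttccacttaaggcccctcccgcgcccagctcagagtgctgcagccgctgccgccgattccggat

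The PFKFB4 and SLC2A1 windows hold 1 marked stretch each, and the PGK1 and LDHA windows printed here hold 3. Among the genes not printed, ALDOC (log2 fold change -0.74) holds 4 in its window and ALDOA (-0.43) holds 1 in each of its windows. No relation between the number of stretches and the size of the difference is read from this. LDHA has a second window (chr11:18396101-18396380, not printed) with 1 stretch, and the upstream window is the one shown. Of the 3 stretches printed for LDHA 2 read CACGTG, the E-box letters, in which ACGTG is found on both strands. Over all 10 genes RefSeq gives 16 such windows, and 15 of them (93.8%) hold at least 1 match, against 52.6% of 21670 windows of the genes in the count table and 46.3% of all 35116 windows. CACGTG was in 5 of the 16 windows (31.2%), against 8.0% of the windows of genes in the table. The window without a match is 1 of the 2 given for PDK1. Among the related lists described below, a match was in 3 of 10 windows for the pentose phosphate pathway (the lowest share), 21 of 43 (48.8%) for the other glycolytic enzymes and 20 of 25 for glycogen metabolism (the highest share), and the share with CACGTG ran from 4.7% for the other glycolytic enzymes to 25.0% of 16 for pyruvate dehydrogenase and its regulators. By gene, a match in any window was found for all 10, against 60.1% of the genes in the table that have a window. That share was 33.3% for the pentose phosphate pathway, 75.0% for the other glycolytic enzymes, 90.0% for glycogen metabolism and 90.9% for pyruvate dehydrogenase and its regulators. The 10 genes were chosen in part as responsive to hypoxia, so nothing is read from their share. These are counts of letters and were set against no binding data.

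All 10 genes were lower in each of the 3 RAC3 libraries than in each of the 3 negative controls. Over all genes tested, 21.6% showed such a separation with RAC3 lower, and since the genes were chosen for this contrast nothing is read from their count. Fitted with edgeR, the log2 fold changes ranged from -2.29 for PFKFB4 to -0.35 for LDHA with a median of -0.72, against 0.00 for all genes tested. In 6 of the 10 (PFKFB4, SLC2A1, ENO2, PFKFB3, ALDOC and PDK1) the fitted level was lower by more than 1.5-fold, a mark that 2.99% of all genes passed in this direction together with an unadjusted p below 0.05. From these bulk samples, fewer cells with such RNA and less RNA per cell cannot be told apart.

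**Figure D1:**
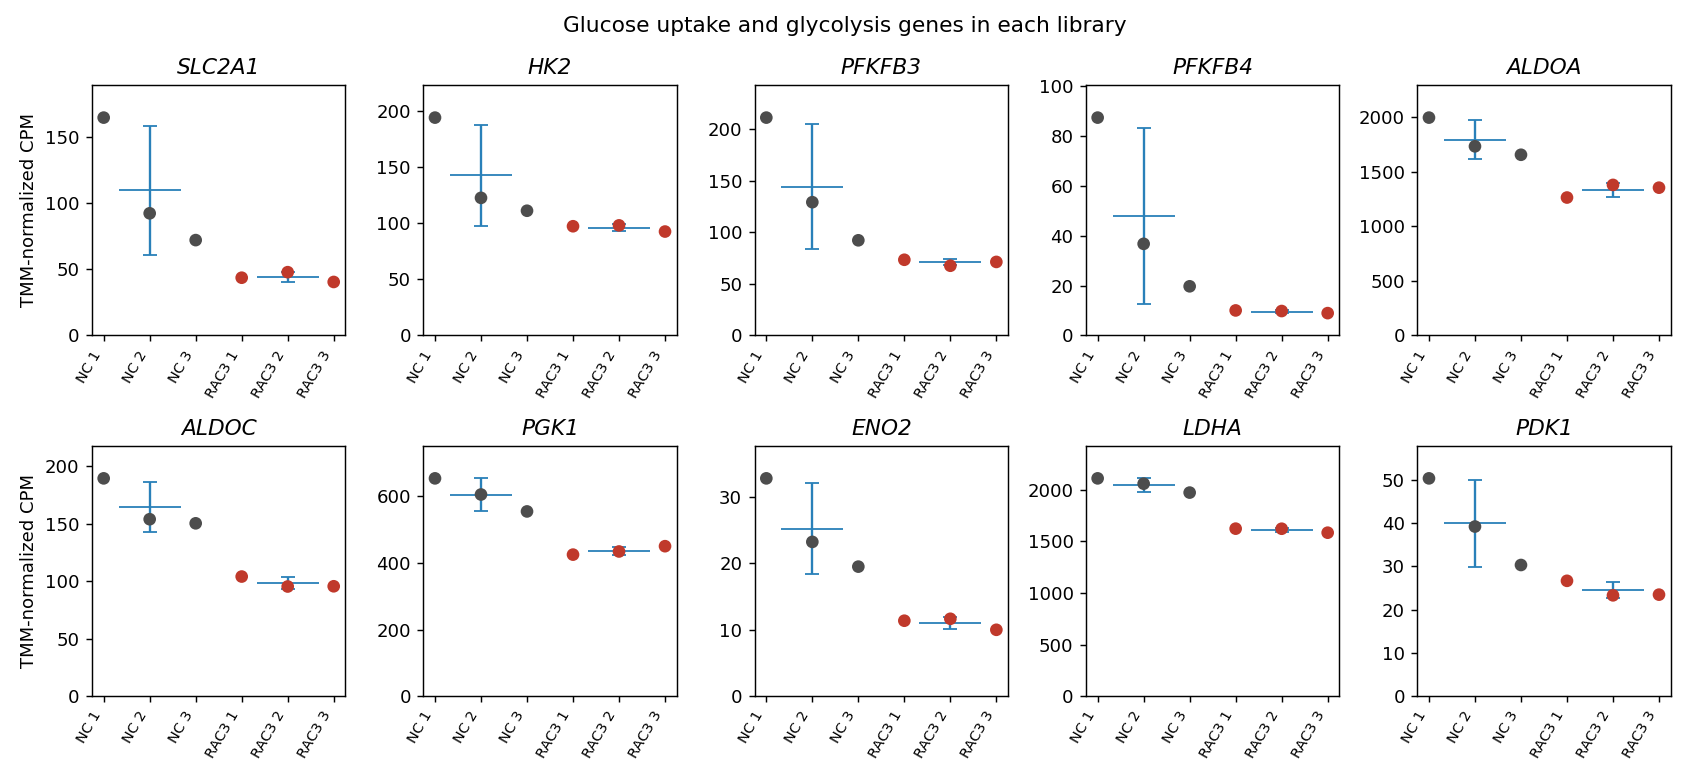
TMM-normalized CPM of the 10 genes in each library, with 1 panel per gene and a y axis that starts at 0; grey points are the negative controls (NC), red points the RAC3 libraries, and blue bars the mean with its SD (n = 3). In every panel the RAC3 points sit below the controls and close together, while negative control 1 is the highest library, with the largest fold over negative control 2 for PFKFB4 (87.3 against 36.7 CPM).

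SLC2A1 (ENSG00000117394, chromosome 1 from 42925375 to 42959176 on GRCh38), the transporter that brings glucose across the plasma membrane, had 165.0, 92.5 and 72.2 CPM in the negative controls 1, 2 and 3 and 43.7, 47.9 and 40.5 CPM in the RAC3 libraries. The controls differed 2.28-fold among themselves, yet the lowest of them was still 1.51 times the highest RAC3 library. The fitted log2 fold change was -1.31 (standard error 0.185). HK2 (ENSG00000159399, chromosome 2 from 74833981 to 74893359), which phosphorylates glucose and so traps it in the cell, had 194.2, 122.7 and 111.2 CPM in the controls and 97.4, 98.1 and 92.6 CPM with RAC3. Only negative control 1 stood well above the rest, and the lowest control was 1.13 times the highest RAC3 library. Its log2 fold change of -0.56 (standard error 0.127) became -0.29 without negative control 1.

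PFKFB3 and PFKFB4 make fructose 2,6-bisphosphate, the strongest known activator of 6-phosphofructo-1-kinase and thus of the committed step of glycolysis. PFKFB3 (ENSG00000170525, chromosome 10 from 6144934 to 6254644) had 211.4, 129.3 and 92.3 CPM in the controls and 73.4, 67.6 and 71.4 CPM with RAC3, a log2 fold change of -1.02 (standard error 0.173) that became -0.64 without negative control 1. PFKFB4 (ENSG00000114268, chromosome 3 from 48517684 to 48562015) had 87.3, 36.7 and 19.7 CPM in the controls and 10.02, 9.78 and 8.94 CPM with RAC3. It was the gene with the largest spread among controls, 4.43-fold between negative controls 1 and 3, and with the largest difference between the groups, a log2 fold change of -2.29 (standard error 0.344). Its lowest control was 1.96 times its highest RAC3 library, the widest such gap of the 10, and the fitted value was -1.54 without negative control 1.

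The aldolases cleave fructose 1,6-bisphosphate into the triose phosphates. ALDOA (ENSG00000149925, chromosome 16 from 30064164 to 30070457), the muscle form that most tumour cells use, had 1996, 1733 and 1656 CPM in the controls and 1264, 1379.6 and 1354 CPM with RAC3, a log2 fold change of -0.43 (standard error 0.0530). It shares its strand and position with AC093512.2, which had 1904 to 3462 counts of its own in these libraries, so how the reads were divided between the 2 is uncertain. ALDOC (ENSG00000109107, chromosome 17 from 28573115 to 28577264), the brain form, had 189.3, 153.8 and 150.3 CPM in the controls and 104.0, 95.3 and 95.5 CPM with RAC3, a log2 fold change of -0.74 (standard error 0.0707). The gap between the lowest control and the highest RAC3 library was 1.20-fold for ALDOA and 1.44-fold for ALDOC.

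PGK1 (ENSG00000102144, chromosome X from 77910739 to 78129296) makes the first ATP of the pathway. It had 654, 606 and 555 CPM in the controls and 425, 435 and 451 CPM with RAC3, with a log2 fold change of -0.47 (standard error 0.0496). ENO2 (ENSG00000111674, chromosome 12 from 6913745 to 6923698), the neuronal enolase, was far less abundant, with 32.8, 23.2 and 19.5 CPM in the controls and 11.4, 11.7 and 10.001 CPM with RAC3. Its log2 fold change of -1.18 (standard error 0.147) was the third largest in size, and its lowest control was 1.67 times its highest RAC3 library. ENO2 overlaps LRRC23 on the same strand, a gene with 207 to 352 counts in these libraries, about as many as ENO2 itself.

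LDHA (ENSG00000134333, chromosome 11 from 18394388 to 18408425) had 2112, 2060.3 and 1974 CPM in the controls and 1624, 1624 and 1585 CPM with RAC3. The controls lay within 1.07-fold of each other and the RAC3 libraries closer still, and the log2 fold change was -0.35 (standard error 0.0360), the smallest of the 10. PDK1 (ENSG00000152256, chromosome 2 from 172555373 to 172608669), the pyruvate dehydrogenase kinase, had 50.4, 39.2 and 30.3 CPM in the controls and 26.7, 23.3 and 23.5 CPM with RAC3, a log2 fold change of -0.69 (standard error 0.126). Its lowest control was only 1.14 times its highest RAC3 library. The annotation lists 6 pseudogenes named after LDHA, 2 after ALDOA and 1 each after HK2 and PGK1, none of which has a row in the table. How the counting treated reads that match such a pseudogene is not given in the sources used here.

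The negative controls differed in the same order for every one of these genes. Negative control 1 was highest and negative control 3 lowest in 10 of 10, an order found for 19.4% of all genes tested, and negative control 1 was the highest control for 36.8% of all genes. The fold between negative controls 1 and 3 exceeded 1.5 in 6 of the 10 (SLC2A1, HK2, PFKFB3, PFKFB4, ENO2 and PDK1) and was between 1.07 and 1.26 in LDHA, PGK1, ALDOA and ALDOC. The SD of log2 CPM was larger among the controls than among the RAC3 libraries for all 10. Its median was 0.372 in the controls and 0.0690 with RAC3, while over all genes tested the medians were 0.0926 and 0.0923. No single library stood out in the same way with RAC3, where RAC3 1 was highest for 5 genes, RAC3 2 for 4 and RAC3 3 for 1. The 10 genes were chosen with these values in view, so nothing is read from the order or the spread of the controls.

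**Figure D2:**
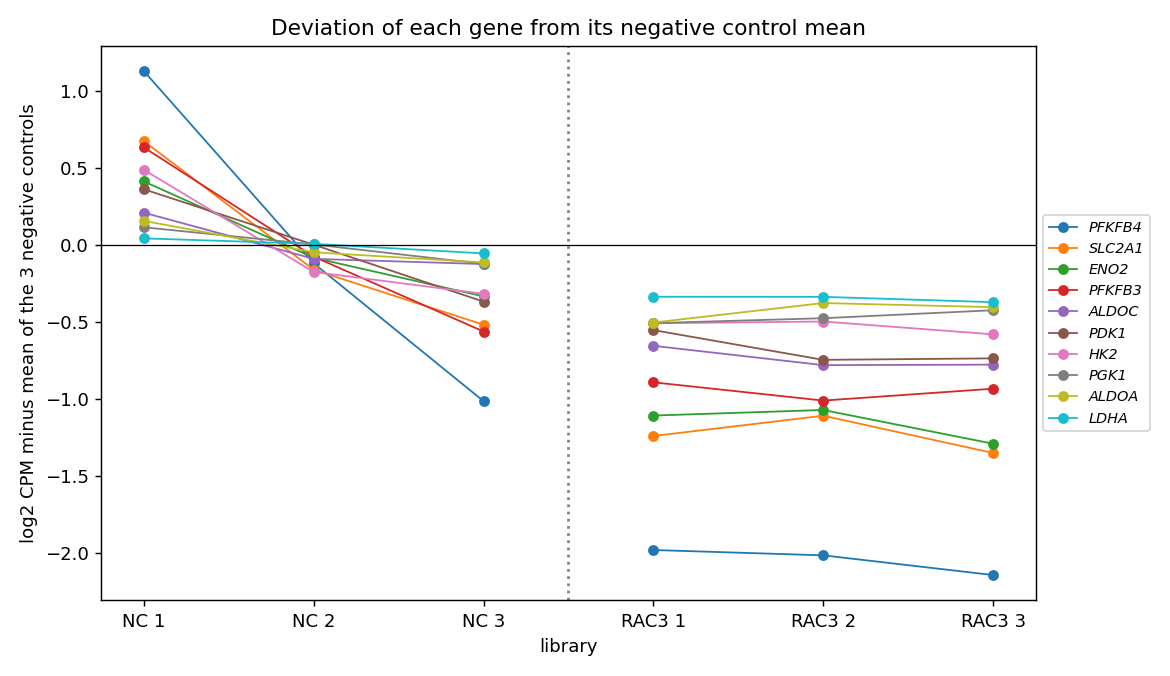
Log2 CPM of each of the 10 genes in each library minus that gene's mean over the 3 negative controls (NC); lines only join the points of 1 gene within a group, and the dotted line parts the groups. The median over genes was 0.39, -0.08 and -0.32 in the controls 1, 2 and 3 and -0.60, -0.76 and -0.75 in the RAC3 libraries 1, 2 and 3.

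Set against each control separately, the RAC3 mean of the 10 genes was lower by a median log2 difference of -1.03 from negative control 1, -0.66 from negative control 2 and -0.36 from negative control 3. Against negative control 3 the differences ran from -1.03 for PFKFB4 through -0.82 for ENO2 and -0.71 for SLC2A1 to -0.21 for HK2. Against negative control 1 they ran from -3.17 for PFKFB4 to -0.39 for LDHA. PFKFB4, SLC2A1 and PFKFB3, the genes with the largest spread among controls, thus changed most in size with the control chosen, while LDHA lay between -0.39 and -0.29 against any of them. The 10 genes together took 0.553%, 0.491% and 0.461% of all counts in the controls 1, 2 and 3, and 0.377%, 0.385% and 0.380% in the RAC3 libraries. Leaving out negative control 1 moved the median log2 fold change from -0.72 to -0.57 and left 5 genes past 1.5-fold.

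Levels were compared between genes on the deposited FPKM scale, which divides by a length that is not given. This length was not fixed per gene over the libraries. For SLC2A1, 43.7 and 40.5 CPM in RAC3 1 and RAC3 3 went with 18.5 and 13.7 FPKM. The ranks, shares and sums of FPKM given here and below carry this limit. ALDOA and LDHA were the most abundant of the 10 in every library, with 1111 to 1311 FPKM and 1172 to 1256 FPKM in the controls and 880.3 to 948 FPKM and 916 to 965 FPKM with RAC3, and their order changed between libraries. PGK1 followed at 189 to 218 FPKM in the controls and 151 to 159 FPKM with RAC3, and ALDOC came next in every library. SLC2A1, HK2 and PFKFB3 shared the ranks after it in an order that varied, with levels of 19.5 to 63.5 FPKM in the controls and 13.7 to 21.0 FPKM with RAC3. PDK1, ENO2 and PFKFB4 were last. PFKFB4 was 8th in negative controls 1 and 2, at 27.1 and 11.6 FPKM, and 10th in the other 4 libraries, where it had 2.92 to 6.46 FPKM.

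The deposited FPKM values were also summed over each gene and its paralogs. HK2 made up 92.5% ± 1.44 (SD, n = 3) of the FPKM of the 5 hexokinases in the controls and 91.0% ± 0.278 with RAC3. The rest was HK1, whose log2 fold change of -0.51 (standard error 0.194) did not pass (adjusted p = 0.0546, from the quasi-likelihood test in edgeR adjusted over all genes by the Benjamini-Hochberg method), and HKDC1 at 0.48 (adjusted p = 0.226). HK3 had a mean below 1 count per library. SLC2A1 made up 86.7% ± 4.10 of the summed FPKM of SLC2A1, SLC2A2, SLC2A3, SLC2A4 and SLC2A14 in the controls and 84.6% ± 4.17 with RAC3. This sum leaves out SLC2A8, an intracellular transporter, which had 42.1, 40.4 and 41.1 FPKM in the controls and 42.6, 45.9 and 48.7 FPKM with RAC3, above SLC2A1 in every library but negative control 1. SLC2A8 did not pass the test (log2 fold change 0.07, adjusted p = 0.446). Also left out were SLC2A6 and further SLC2A genes at lower levels. SLC2A6 had 14.2, 12.5 and 11.8 FPKM in the controls and 12.3, 12.4 and 13.5 FPKM with RAC3 (log2 fold change -0.16, adjusted p = 0.146). SLC2A3, the high-affinity transporter of neurons, fell from 9.01 ± 0.7995 CPM to 4.33 ± 0.565 CPM (SD, n = 3; log2 fold change -1.06, standard error 0.164, adjusted p = 9.0e-05). SLC2A14, its near-identical copy, had a log2 fold change of -0.73 (adjusted p = 0.0157, and 0.0972 without negative control 1), and reads may be split between the 2. SLC2A4, the insulin-responsive transporter of muscle and fat, fell by 1.07 on the log2 scale (adjusted p = 0.00219), from a low level of 4.23 ± 0.640 CPM, and the liver transporter SLC2A2 was below the filter with a mean of 2.0 counts.

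Among the kinases that regulate the pathway, PFKFB3 made up 70.6% ± 4.78 of the FPKM of the 4 PFKFB genes in the controls and 79.0% ± 1.25 with RAC3, and PFKFB4 25.6% ± 6.56 and 13.9% ± 1.86. The summed FPKM of this family was 83.0, 47.5 and 32.8 in the controls and 24.7, 22.1 and 24.2 with RAC3. PFKFB2, the heart form, differed by -0.17 on the log2 scale (standard error 0.137, adjusted p = 0.396), and PFKFB1, the liver form, had a mean below 1 count. PDK1 made up 44.97% ± 4.10 of the FPKM of the pyruvate dehydrogenase kinases in the controls and 39.4% ± 2.61 with RAC3. None of its paralogs passed the test: the log2 fold change was -0.20 for PDK2 (adjusted p = 0.201), -0.018 for PDK3 (adjusted p = 0.871) and 0.47 for PDK4 (adjusted p = 0.244).

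**Figure D3:**
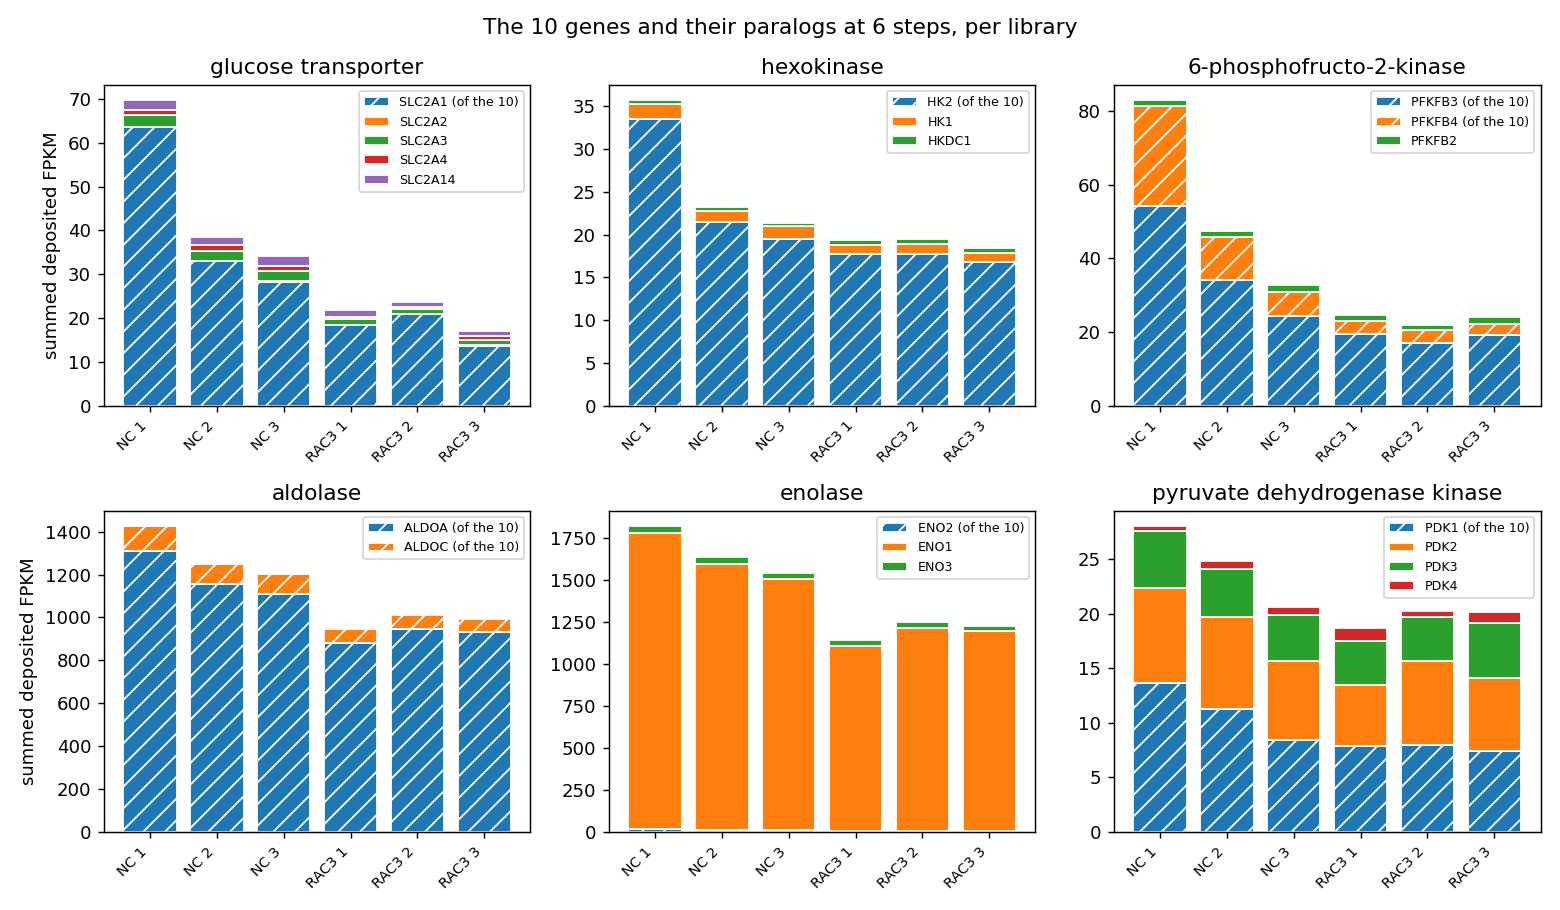
Deposited FPKM of the 10 genes (hatched) and their paralogs (plain), stacked at 6 steps in each library, without genes that averaged under 2 counts. HK2, PFKFB3 and ALDOA form most of their stacks, and SLC2A1 forms most of a stack that leaves out SLC2A8, SLC2A6 and other SLC2A genes. ENO1 forms most of the enolase stack, and the 3 largest pyruvate dehydrogenase kinases share theirs.

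ALDOA made up 92.2% ± 0.310 of aldolase FPKM in the controls and 93.6% ± 0.550 with RAC3, with ALDOC as nearly all of the remainder. LDHA made up 99.9% of lactate dehydrogenase FPKM in both groups, and LDHB was below the filter with 8, 15 and 6 counts in the controls and 1, 64 and 2 counts in the RAC3 libraries 1, 2 and 3. ENO2 was a minor form, as it made up 0.718% ± 0.0844 of enolase FPKM in the controls and 0.455% ± 0.0628 with RAC3. ENO1, which made up 96.9% in each group, fell from 2852 ± 258 CPM to 1974 ± 121 CPM (log2 fold change -0.53, standard error 0.0527, adjusted p = 7.0e-07), and ENO3 fell by 0.38 on the log2 scale (adjusted p = 2.1e-04).

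The remaining enzymes of the pathway were tested in the same fit, in lists that hold none of the 10 genes. These lists too were drawn up with earlier results of these data known, so they are no independent test. At an adjusted p below 0.05, 28.5% of all genes tested were called, 15.3% lower and 13.3% higher. Of 27 other glycolytic enzymes and regulators 18 could be tested. Of these 8 fell, 1 rose and 9 did not pass, with a median log2 fold change of -0.18. Among those that fell were abundant enzymes: GAPDH from 8109 ± 468 CPM to 6324 ± 275 CPM (log2 fold change -0.36, adjusted p = 3.9e-06), TPI1 by 0.40 on the log2 scale (adjusted p = 4.0e-06), and PKM, which makes pyruvate and ATP in the last step, by 0.35 on the log2 scale (adjusted p = 1.2e-05). TIGAR, a phosphatase that breaks down fructose 2,6-bisphosphate and so opposes the PFKFB3 product, rose from 24.3 ± 0.560 CPM to 31.4 ± 3.28 CPM (log2 fold change 0.37, adjusted p = 0.00297). None of these 18 genes passed the fold of 1.5 together with an unadjusted p below 0.05. Over all genes 4.68% did, so with 18 genes nothing is read from this.

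Followed step by step from hexokinase to lactate dehydrogenase, the enzyme with the highest FPKM was lower with RAC3 at each of the 11 steps. This view was drawn up after the values had been seen, so nothing is read from the count. Over all genes tested, 15.3% were called lower, and 21.6% were lower in every RAC3 library than in every control. At 4 steps this enzyme is among the 10 genes (HK2, ALDOA, PGK1 and LDHA). At the other 7 it is outside the 10 genes and fell by the test over all genes: GPI (log2 fold change -0.22, adjusted p = 0.00124), PFKL (-0.36, adjusted p = 2.8e-04), TPI1, GAPDH, PGAM1 (-0.19, adjusted p = 0.00262), ENO1 and PKM. The fitted ratio of control to RAC3 at these 7 steps lay between 1.14 for PGAM1 and 1.44 for ENO1. The calls of GPI, PFKL and PGAM1 were not followed through the alternative processing. PFKL, the liver form of 6-phosphofructo-1-kinase, made up 83.6% of the FPKM at its step, the lowest share of any leading enzyme. The other forms at this step, PFKM (log2 fold change 0.10, adjusted p = 0.457) and PFKP (0.58, adjusted p = 0.397), did not pass.

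Of 15 tested transporters of glucose, lactate and pyruvate outside the 10, 4 fell, 2 rose and 9 did not pass. Their median of -0.06 became -0.15 without negative control 2 and -0.018 without RAC3 replicate 1. Beside the glucose transporters above, SLC16A3 (MCT4), the lactate exporter of glycolytic cells, had 138, 109 and 100.2 CPM in the controls and 69.2, 68.6 and 69.7 CPM with RAC3. It fell by 0.74 on the log2 scale (standard error 0.0829, adjusted p = 2.9e-06), with negative control 1 again highest. SLC16A1 (MCT1) rose by 0.20 and SLC16A7 (MCT2) by 0.19 on the log2 scale (adjusted p = 0.0111 and 0.0138), although SLC16A7 had a log2 fold change of -0.021 (adjusted p = 0.786) and SLC16A1 an adjusted p of 0.121 when each library's trend with GC content was removed.

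Among the 11 tested genes of pyruvate dehydrogenase and its regulators, 3 rose, 1 fell and 7 did not pass, with a median of 0.01. PDP1, the phosphatase that reverses the action of PDK1, had 5.73, 7.59 and 5.80 CPM in the controls and 11.6, 12.9 and 10.1 CPM with RAC3. It rose by 0.87 on the log2 scale (standard error 0.149, adjusted p = 2.6e-04), while PDK1 itself was lower in every RAC3 library than in every control. The subunits DLD (0.24, adjusted p = 0.0050) and PDHX (0.22, adjusted p = 0.0362) also passed, but neither did with the GC trend removed (adjusted p = 0.213 and 0.212). PDP2 fell by 0.28 on the log2 scale (adjusted p = 0.0233).

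The pathways that branch from glycolysis were mostly lower or did not pass. In the pentose phosphate pathway 5 of 8 tested genes fell and none rose (median -0.29), among them PGD (from 478 ± 4.20 CPM to 360.4 ± 2.70 CPM, adjusted p = 3.4e-07) and TKT (log2 fold change -0.39, adjusted p = 7.2e-06). In glycogen metabolism 8 of 21 fell and none rose (median -0.19), including the synthase GYS1 (-0.47, adjusted p = 3.3e-05) and PGM1 (-0.55, adjusted p = 2.9e-04), which interconverts the glucose phosphates on the way to and from glycogen. In gluconeogenesis 2 of 5 fell and none rose (median -0.53), PCK2 (-0.67, adjusted p = 5.2e-08) and PC (-0.54, adjusted p = 6.1e-07), while FBP1 did not pass (-0.53, adjusted p = 0.156) and G6PC1, FBP2 and PCK1 were below the filter. Over all 99 tested genes of these lists outside the 10, 31 fell, 11 rose and 57 did not pass, and the median log2 fold change was -0.06. The medians depended on the processing: that of glycogen metabolism was -0.10 without negative control 2, -0.11 without RAC3 replicate 2 and -0.10 with the GC trend removed, that of gluconeogenesis -0.20 without the filter, and that of the pentose phosphate pathway -0.16 without the filter or with the GC trend removed.

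**Figure D4:**
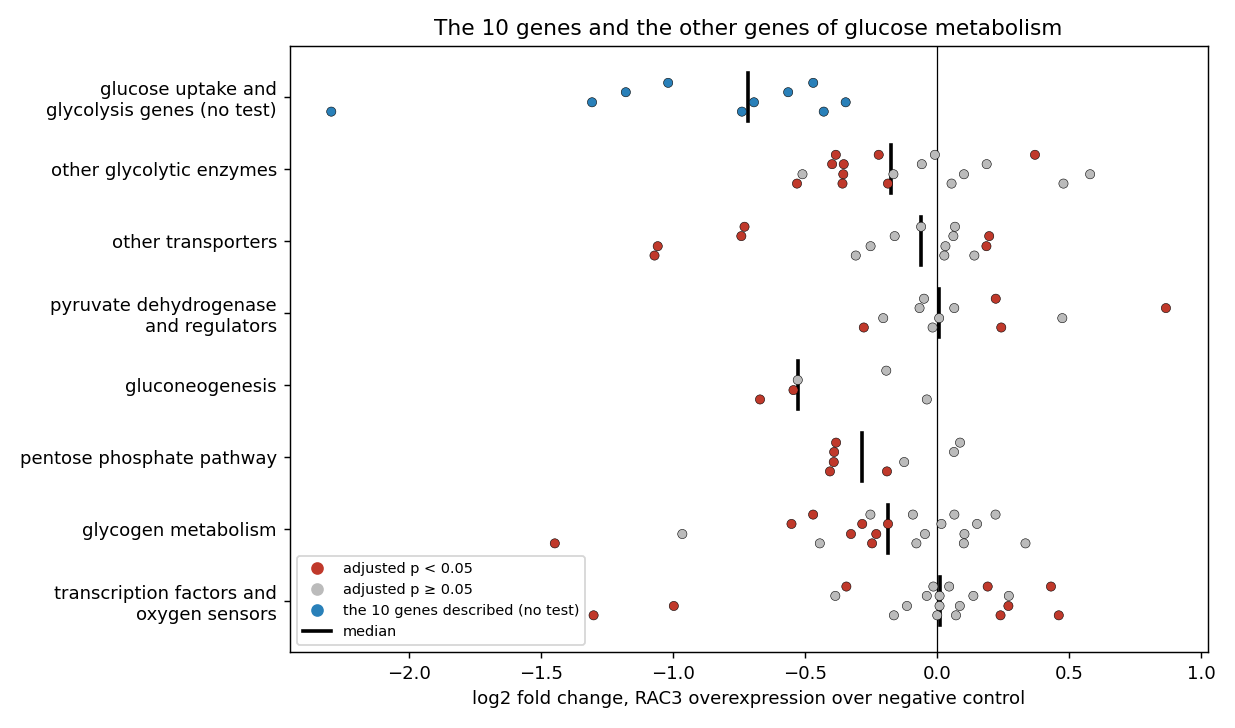
Fitted log2 fold change, RAC3 over negative control, of each tested gene in 8 lists of glucose metabolism; red points had an adjusted p below 0.05, grey points did not, blue points are the 10 genes described, without a test, and bars are medians. The blue points run from -2.29 to -0.35, while the points of the other lists lie on both sides of 0, except in gluconeogenesis, where all 5 lie below it.

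Of 21 transcription factors and oxygen sensors that act on glycolytic genes, 5 rose, 3 fell and 13 did not pass, with a median of 0.01. Among the hypoxia-inducible factor subunits, HIF1A, EPAS1 and ARNT did not pass the test. On the log2 scale HIF1A differed by 0.07 (standard error 0.0512, adjusted p = 0.325), EPAS1 by 0.0086 (standard error 0.0396, adjusted p = 0.895) and ARNT by -0.04 (standard error 0.0673, adjusted p = 0.704). These subunits were named after their values had been seen, and the values are of RNA alone. HIF3A, at 3.09 ± 0.740 CPM in the controls, fell by 1.00 on the log2 scale (adjusted p = 0.0124), a call lost without negative control 1 (adjusted p = 0.0779). MXI1, a MYC antagonist and known hypoxia target, had 36.4, 26.3 and 20.2 CPM in the controls and 12.5, 10.3 and 10.4 CPM with RAC3 and fell by 1.301 on the log2 scale (standard error 0.157, adjusted p = 6.9e-06). EGLN3, an oxygen-sensing prolyl hydroxylase, fell by 0.34 (adjusted p = 0.00108), and EGLN2 rose by 0.27 (adjusted p = 0.00263) on that scale. MYC rose from 63.3 ± 1.40 CPM to 87.1 ± 3.45 CPM (log2 fold change 0.46, adjusted p = 7.4e-06), and TXNIP, which promotes removal of SLC2A1 from the membrane, rose by 0.43 on the log2 scale (adjusted p = 7.7e-04).

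The order of the controls was also counted in these lists. Negative controls 1, 2 and 3 stood in that order for 6 of 18 other glycolytic enzymes, 3 of 15 transporters, 0 of 11 pyruvate dehydrogenase genes, 0 of 5 gluconeogenesis genes, 4 of 8 pentose phosphate genes, 8 of 21 glycogen genes and 5 of 21 transcription factors and sensors, against 19.4% of all genes. The median level of the other glycolytic enzymes relative to the control mean was 0.09, -0.01 and -0.04 on the log2 scale in the controls 1, 2 and 3.

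Among 11221 genes that averaged 50 counts or more per library, FGF11, BNIP3, PLEKHA2, ZNF395 and EFNA1 had the profiles over the 6 libraries nearest to the mean profile of the 10 genes, with root mean square differences of 0.0565, 0.0712, 0.0757, 0.0861 and 0.0876 in log2 CPM. BNIP3, a mitophagy receptor, had 166, 129 and 112 CPM in the controls and 76.5, 72.3 and 76.0 CPM with RAC3. EFNA1, an ephrin ligand, had 136, 86.4 and 68.7 CPM in the controls and 47.0, 49.2 and 50.2 CPM with RAC3. These genes were picked for their likeness to the 10, so their order in the controls is part of that choice. Among the 10, PDK1 lay nearest to their mean profile (0.111) and PFKFB4 farthest (0.714).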

How the data were processed

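Poly(A)-selected RNA of 3 RAC3-overexpressing and 3 negative control Huh-7 samples was sequenced on an Illumina NovaSeq instrument. The authors deposited raw counts per gene and FPKM values (scaled by library size and by a length not fixed per gene over the libraries) in 1 table. The submitters' processing notes name Bowtie2 2.2.8, HISAT2, StringTie 1.3.1 and DESeq2. The genome build, the strand setting and the lengths behind the FPKM are not given in the sources used here. The mean FPKM columns were not used. Samples were grouped by title. Positions came from GENCODE release 29 (GRCh38) and promoter windows from RefSeq (GRCh38.p14), matched by symbol for all 10 genes. Some genes of the lists are not reported here. No symbol is given for 617 of the 20332 table rows.

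Counts entered edgeR 4.0.16 (R 4.3.3). After filterByExpr, which kept 12941 genes, and TMM scaling, the groups were compared without covariates by edgeR's quasi-likelihood test (two-sided), and p-values were adjusted by the Benjamini-Hochberg method over these genes. The steps were run on simulated data to check that they work, and no rate of recovery or of false calls is given from it. The 10 genes and the pathway lists were chosen with earlier results of these data known. Genes named by rule were the 10, their paralogs, up to 5 called genes per list and direction by smallest p, RAC3, and the 5 nearest profiles. Further genes were named outside this rule, among them GPI, PFKL, PGAM1, SLC2A6, SLC2A8, FBP1, HIF1A, EPAS1 and ARNT. Their single values were not followed through the alternatives listed below. Each standard error is the size of the log2 fold change divided by the square root of the F statistic of this test. The log2 CPM used a prior count of 2. Alternatives were DESeq2 1.42.0 and its size factors, limma-voom (limma 3.58.1), upper quartile scaling, library size alone, no filter, at least 10 counts in every sample, a replicate block, removal of the GC trend (lowess, span 0.3), and leaving out each sample. Group sizes of 3 allow no exact permutation p below 0.1. Same-numbered samples did not deviate together (correlations of -0.130, -0.0624 and -0.0154 over 10169 genes), so the numbers were not taken to pair them.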

Additional observations from a re-analysis of the deposited data

How the results depend on the processing

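The median log2 fold change of the 10 genes was -0.72 and stayed between -0.84 and -0.57 when 1 library was left out, between -0.73 and -0.66 under the other alternatives. For SLC2A1, HK2, PFKFB3 and PFKFB4 the size rests most on negative control 1. Over the pathway genes outside the 10, 42 were called, 39 to 47 with 1 library left out, 40 with DESeq2 and 38 with the GC trend removed. Over all genes 3691 were called, 2630 to 3311 with 1 library left out, 3115 with DESeq2 and 2653 with the GC trend removed. With the replicate number as a block, 3261 genes and 42 pathway genes were called and the median of the 10 was -0.71. The block lost the call of PDHX (adjusted p = 0.0527), and the numbers are not known to pair the samples. The log2 fold change of PDK3 turned to 0.0388 under library size alone (adjusted p = 0.699). With 1 library left out it lay between -0.0435 and 0.00656, the latter without RAC3 replicate 2 (adjusted p = 0.960). That of SLC16A7 turned to -0.0209 with the GC trend removed (adjusted p = 0.786). The cause was not tested. With the GC trend removed TALDO1 (adjusted p = 0.132) and GAA (0.227) also lost their calls. PDHX lost its call in 8 of the 15 alternatives, PDP2 in 4, SLC16A7 in 3, and SLC2A14 and HIF3A in 2 each, and HK1 gained one with at least 10 counts in every sample (adjusted p = 0.0460). Of the list medians, gluconeogenesis also moved to -0.38 and pentose phosphate to -0.16 with the GC trend removed, pyruvate dehydrogenase ranged from -0.045 to 0.064 and transcription factors from 0.0043 to 0.065 over all alternatives. Library size alone moved the median of all genes to 0.06. Depth limits the paralogs near 0 counts, for which no comparison could be made.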
